A study of Mus musculus with 14 samples.

Results

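The spermatogonial genes described here are 9 genes used to mark spermatogonia and the entry of male germ cells into meiosis: Uchl1, Kit, Zbtb16, Sall4, Dmrt1, Sohlh1, Sohlh2, Dazl and Stra8. They were chosen by name from the joint table of 5 conditions, and all 9 were found there, among 21905 genes with a symbol and 27024 features in all. The values come from testes of C57BL/6 mice at least 6 weeks old, along a purification of the chromatoid body, an RNA and protein granule of round spermatids. The cells were crosslinked with formaldehyde before lysis. The conditions are MVH IP (3 libraries, 1 deposited value), pellet2, pellet1, supernatant and lysate (1 library each). MVH is the germ cell helicase encoded by Ddx4; the labels' protocol applies the antibody to the second pellet, while the labels' sample types call the precipitate made from lysate. Separate tables, scaled apart, cover MVH IP, round spermatids of mice labelled hetMIWI (1 library), sorted round spermatids (2 libraries pooled, 1 of them from RNA above 500 bp) and lysate. Each level is 1 deposited value in FPKM, a read density per transcript length and library size, so it has no standard deviation, n or p-value, and no difference has a replicate check; sequencing depth is unknown.

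Spermatogonia are the dividing germ cells at the base of the seminiferous tubule. Undifferentiated ones hold the stem cells and depend on factors such as ZBTB16 and SALL4; retinoic acid then drives differentiation, marked by the receptor KIT, and later the switch to meiosis through STRA8. The helix-loop-helix factors SOHLH1 and SOHLH2 promote differentiation, DMRT1 holds back meiosis, and DAZL is an RNA-binding protein that germ cells need from spermatogonia into meiosis. These cells are a small part of an adult testis, and they lie upstream of the round spermatids that carry the chromatoid body. Several of the genes are not restricted to spermatogonia: Dmrt1 is also expressed in Sertoli cells and Kit in Leydig cells, and a shortened KIT protein is made in mouse spermatids.

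In the testis lysate the spermatogonial genes ran from a listed 0 for Sall4 to 21.6 FPKM for Dazl, and 8 of 9 had their highest level of the 5 conditions in MVH IP. Of the 8 that reached 1 FPKM in any condition 7 did so, and of all 15804 such genes 63.5% did. The median level of the 9 was 9.15 FPKM in MVH IP, 1.37 in pellet2, 1.66 in pellet1, 2.35 in supernatant and 1.99 in lysate, beside a median over all genes of 3.96, 1.93, 1.85, 1.80 and 1.83 FPKM. At 5 FPKM or more there were 7 of the 9 in MVH IP, 2 in pellet2, 3 in pellet1, 2 in supernatant and 2 in lysate, beside 47.0%, 37.5%, 37.7%, 35.7% and 36.1% of all genes. In bulk samples fewer cells of a type and less RNA per cell cannot be told apart.

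**Figure D1:**
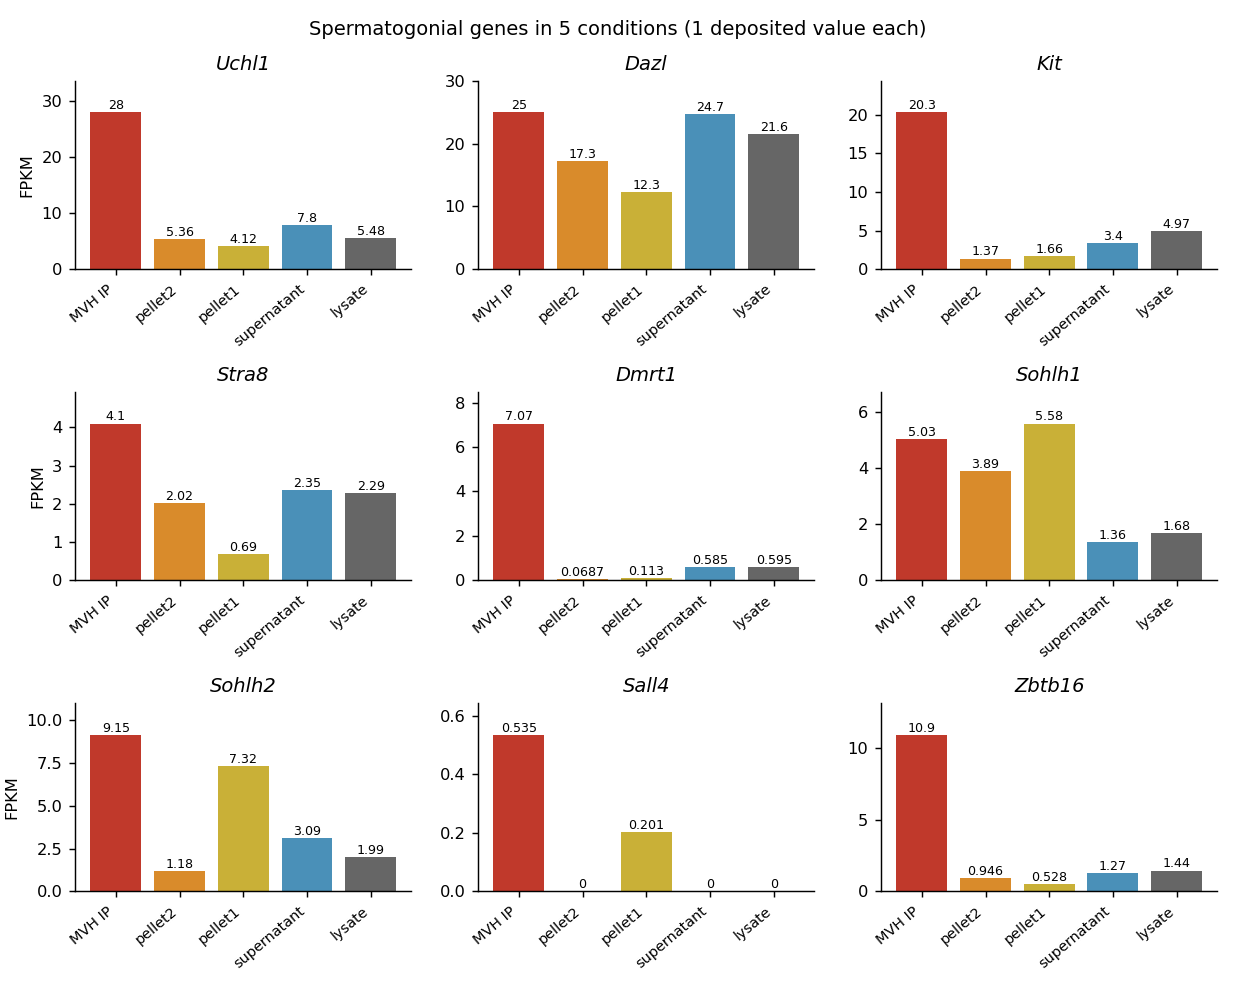
Bars give the deposited level in FPKM (linear axis from 0, its own scale for each gene) of the 9 spermatogonial genes in MVH IP, pellet2, pellet1, supernatant and lysate, 1 value each with no error. The MVH IP bar is the tallest for every gene but Sohlh1, which had 5.03 FPKM in MVH IP against 5.58 in pellet1.

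Uchl1 and Kit are the surface and cytoplasmic markers of the set. Uchl1 encodes a ubiquitin hydrolase used to stain spermatogonia (5:67067360-67078473 in mm9). It was at 28.0 FPKM in MVH IP, 5.36 in pellet2, 4.12 in pellet1, 7.80 in supernatant and 5.48 in lysate. The MVH IP value stood apart, and the other conditions lay within 2-fold of each other. On the log2(FPKM + 1) scale, used for every ratio here and which understates the change of low genes, MVH IP was 2.16 above lysate and 2.19 above pellet2, or 4.48-fold and 4.56-fold. The authors' deposited table gives Uchl1 Cuffdiff q = 0.404 and 0.440 for these pairs.

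Kit, the receptor of stem cell factor and the usual mark of differentiating spermatogonia (5:75971012-76052746), was at 20.3 FPKM in MVH IP, 1.37 in pellet2, 1.66 in pellet1, 3.40 in supernatant and 4.97 in lysate. Both pellets were low and MVH IP was high, so Kit had the largest MVH IP over pellet2 ratio of the 9 genes on this scale, 3.17, above that of 97.6% of all genes. Against lysate the ratio was 1.84. Kit was the only one of the 9 with a q under 0.05 in the authors' deposited table, in 3 of 9 pairs tested there. Of all genes tested there, 1.03% had such a q in MVH IP against pellet2, 0.843% against pellet1 and 9.27% against supernatant. Cuffdiff gave it q = 0.0184 against pellet2, 0.0219 against pellet1 and 0.00863 against supernatant in the authors' deposited table, but 0.0657 against lysate.

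The Kit level depends on the table. A further deposited table gives 1 value per RefSeq transcript record for MVH IP, with no stated unit, and lists 1 record of Kit at 1.21. Its values lie 2.37-fold below the joint table at the median of 6373 records, whereas this Kit record lies 16.8-fold below, and 1.98% of records lie lower than that. The record of Dazl in the same table, at 7.59, lies 3.30-fold below. Which Kit transcripts make up the joint value was not tested. Kit is also not listed in the separate MVH IP gene table, which starts at 5 FPKM; however, 29.5% of the 3611 genes between 10 and 30 FPKM in the joint table are missing from it too.

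Zbtb16 and Sall4 encode zinc finger repressors of undifferentiated spermatogonia. Zbtb16 (9:48462402-48644050) was at 10.9 FPKM in MVH IP, 0.946 in pellet2, 0.528 in pellet1, 1.27 in supernatant and 1.44 in lysate. It was near 1 FPKM outside the IP, and MVH IP was 2.28 above lysate and 2.61 above pellet2 on the log2 scale (4.87-fold and 6.12-fold). The authors' deposited table has q = 0.131 and 0.129 for these pairs of Zbtb16. Sall4 (2:168573832-168592701) had 0.535 FPKM in MVH IP and 0.201 in pellet1, and is listed at 0 in pellet2, supernatant and lysate. No fold is given for Sall4, since a listed 0 can be a failed estimate, and the authors tested none of its pairs.

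Dmrt1, Sohlh1 and Sohlh2 are the transcription factors of differentiation. Dmrt1 (19:25580196-25678818) was at 7.07 FPKM in MVH IP, 0.0687 in pellet2, 0.113 in pellet1, 0.585 in supernatant and 0.595 in lysate. Only MVH IP was above 1 FPKM, so Dmrt1 entered the comparisons through the condition where it is high and had to differ there. Its log2 ratio was 2.34 over lysate and 2.92 over pellet2, and the authors tested none of its 10 pairs. The separate MVH IP table lists Dmrt1 at 9.24 FPKM.

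Sohlh1 and Sohlh2 were the 2 of the 9 genes with a level in the first pellet 2-fold or more above lysate. Sohlh1 (2:25698517-25702768) was at 5.03 FPKM in MVH IP, 3.89 in pellet2, 5.58 in pellet1, 1.36 in supernatant and 1.68 in lysate. The pelleted material and MVH IP were thus all above the soluble fraction and lysate. Sohlh2 (3:54985966-55013879) was at 9.15 FPKM in MVH IP, 1.18 in pellet2, 7.32 in pellet1, 3.09 in supernatant and 1.99 in lysate, and so was low again in the second pellet. Pellet1 over lysate gave a log2 ratio of 1.29 for Sohlh1 and 1.48 for Sohlh2, while Uchl1, Dazl, Kit and Stra8 were all below 0. The authors' deposited table gives these pellet1 differences q = 0.731 for Sohlh1 and 0.545 for Sohlh2.

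The proteins of these 2 genes higher in pellet1 belong to a family that binds E boxes. The 250 bases before the transcript start of each are shown with that motif, CANNTG, in capitals. The motif reads the same on both strands, N being any base. The sequences are from RefSeq on GRCm38.p6, at chr2:25847249-25847498 on the minus strand for Sohlh1 and chr3:55181794-55182043 on the plus strand for Sohlh2, and are written 5′ to 3′ along the gene. RefSeq promoters were matched for 6 of the 9 genes (Uchl1, Kit, Sohlh1, Sohlh2, Dazl and Stra8).
Sohlh1: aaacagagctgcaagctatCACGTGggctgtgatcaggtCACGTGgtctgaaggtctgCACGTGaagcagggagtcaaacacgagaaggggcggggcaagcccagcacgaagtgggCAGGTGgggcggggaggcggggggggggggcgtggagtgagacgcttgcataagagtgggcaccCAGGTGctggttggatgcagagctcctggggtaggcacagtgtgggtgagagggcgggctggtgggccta
Sohlh2: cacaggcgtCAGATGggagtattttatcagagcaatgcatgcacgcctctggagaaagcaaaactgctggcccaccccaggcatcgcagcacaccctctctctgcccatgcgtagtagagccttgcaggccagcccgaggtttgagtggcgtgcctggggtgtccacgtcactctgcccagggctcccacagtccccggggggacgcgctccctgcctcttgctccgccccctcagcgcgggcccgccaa
The Sohlh1 window holds 5 such matches, 3 of them CACGTG, and the Sohlh2 window holds 1. Of 27025 genes with a promoter in the table, 66.0% hold at least 1 match, 1.18% hold 5 or more and 6.05% hold CACGTG. Dazl holds 1 match, and Uchl1, Kit and Stra8 hold 0 in this window. A match is a description of letters and not a binding site, and these RNA levels do not measure transcription from either promoter.

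Dazl and Stra8 stand at the entry to meiosis. Dazl (17:50418719-50432924) was at 25.02 FPKM in MVH IP, 17.3 in pellet2, 12.3 in pellet1, 24.7 in supernatant and 21.6 in lysate. It was the highest of the 9 genes in each condition except MVH IP and had the smallest difference between MVH IP and lysate of the 8 genes with a ratio, with a log2 ratio of 0.21 where the median of all genes was 0.92. The authors' deposited table gives Dazl q = 0.975 for this pair. The separate gene tables list Dazl with 18.0 FPKM in MVH IP against 8.41 in lysate, a log2 ratio of 1.01, but 78.9% of the genes in both of those tables are 2-fold or more higher in MVH IP. Stra8 (6:34870960-34889342), the retinoic acid target needed to start meiosis, was at 4.10 FPKM in MVH IP, 2.02 in pellet2, 0.690 in pellet1, 2.35 in supernatant and 2.29 in lysate. Its MVH IP value was the highest and its pellet1 value the lowest, with log2 ratios to lysate of 0.64 and -0.96.

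In the comparison of MVH IP with lysate, which sets the precipitate beside the whole testis, 8 of the 9 genes had a mean of at least 1 FPKM. Of these 8, 6 were 2-fold or more higher (Uchl1, Kit, Dmrt1, Sohlh1, Sohlh2 and Zbtb16) and 0 were lower, with 47.3% of all 13855 genes higher and 7.53% lower. Their median log2 ratio was 1.80 and that of all genes 0.92. After subtracting this general shift 3 were 2-fold higher (Uchl1, Dmrt1 and Zbtb16) and 0 lower, beside 18.7% and 20.6% of all genes. At 4-fold or more there were the same 3 of 8, beside 16.9% of all genes. Counts over genes that passed the filter describe them and are no test, since Dmrt1 passed through MVH IP alone. Some genes of the other lists below also passed that way. No control IP was used here.

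Against pellet2, the material that per the protocol entered the IP, the same 8 genes passed, Dmrt1 and Zbtb16 through MVH IP alone. Uchl1, Kit, Dmrt1, Sohlh2 and Zbtb16 were all 4-fold or more higher, 5 of 8 beside 10.8% of all genes, and 0 were lower at 2-fold, beside 5.78%. At 2-fold the count was also 5, beside 39.9% of all 13808 genes, and it was again 5 after subtracting the median shift of 0.79, beside 14.2% higher and 13.7% lower over all genes. The remaining 3 were Dazl at a log2 ratio of 0.51, Stra8 at 0.76 and Sohlh1 at 0.30, each below the median of all genes. With at least 1 FPKM required in both conditions, a filter chosen after seeing the data, Dmrt1 and Zbtb16 drop out and the count is 3 of 6.

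**Figure D2:**
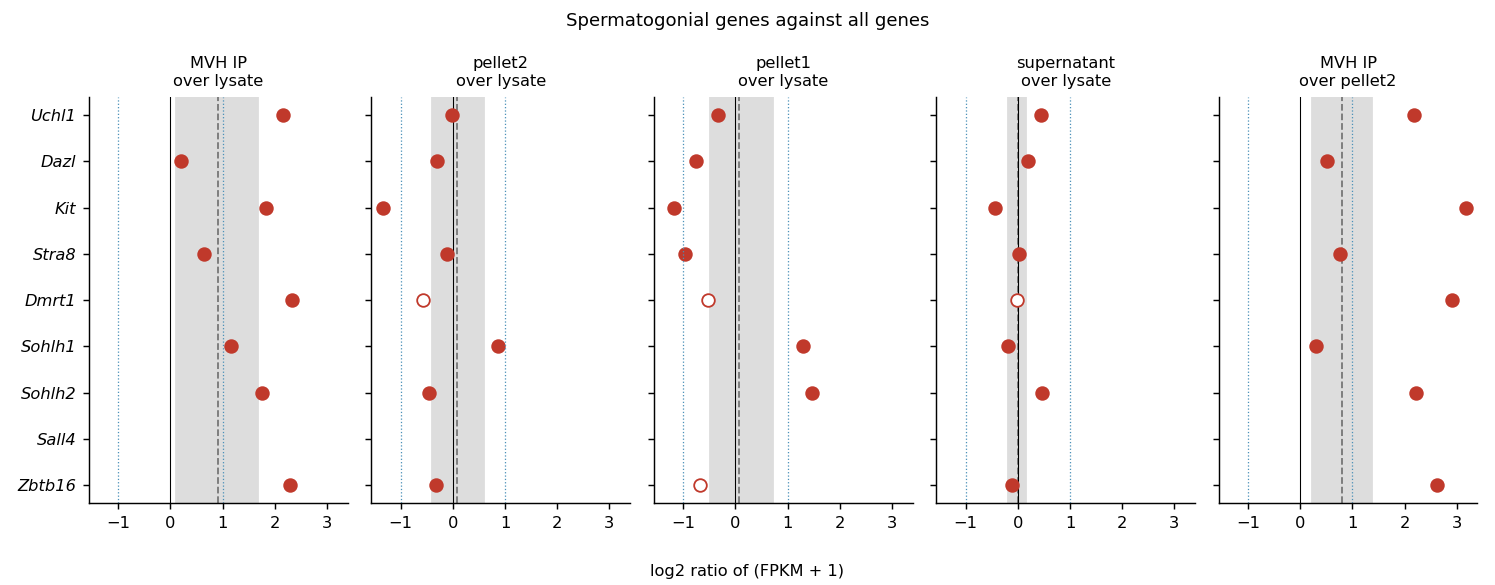
Points give the log2 ratio of (FPKM + 1) of each spermatogonial gene in 5 comparisons, filled where the mean of the 2 conditions was at least 1 FPKM and open below it; the grey band runs between the quartiles of all genes that passed that filter, the dashed line their median and the dotted lines 2-fold. In MVH IP over pellet2, Uchl1, Kit, Dmrt1, Sohlh2 and Zbtb16 lie between 2.19 and 3.17, right of the band, while Sall4 has no point because it is listed at 0.

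The steps before the IP showed few differences of that size. In pellet2 over lysate 7 genes passed, with 0 higher, beside 12.5% of all 12941 genes, and Kit lower at -1.34, beside 7.21%. In pellet1 over lysate 6 passed, with Sohlh1 and Sohlh2 higher, beside 16.8% of all 12904 genes, and Kit lower at -1.17, beside 9.41%. In supernatant over lysate 0 of 7 were higher or lower, beside 0.751% and 1.46% of all 12777 genes, and their ratios ran from -0.44 for Kit to 0.45 for Sohlh2. Kit was therefore below lysate in supernatant and in both pellets, and above it in MVH IP. These comparisons all share the lysate library. None of the 9 genes had, in the authors' deposited table, a q under 0.05 against lysate, where 7.16% of tested genes did in MVH IP, 0.996% in pellet2, 2.26% in pellet1 and 0.00947% in supernatant.

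A rank within each condition does not depend on how the conditions were scaled, but it does depend on how many genes are listed at 0. Of 21905 genes, 15959 were above 0 in MVH IP, 16140 in pellet2, 16350 in pellet1, 18437 in supernatant and 17989 in lysate. A gene just above 0 therefore ranks higher in MVH IP and the pellets than in supernatant or lysate. Kit had a higher FPKM than 73.4% of genes with a symbol in MVH IP, against 45.5% in pellet2 and 63.8% in lysate. Zbtb16 stood at 63.8% in MVH IP, against 41.1% in pellet2 and 46.7% in lysate, and Dmrt1 at 57.6%, 27.7% and 35.4%. Dazl stood lower in MVH IP, at 76.4% in MVH IP, against 79.6% in pellet2 and 83.7% in lysate. Stra8 stood at 50.3% in MVH IP, 50.6% in pellet2, 38.5% in pellet1 and 53.0% in lysate.

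**Figure D3:**
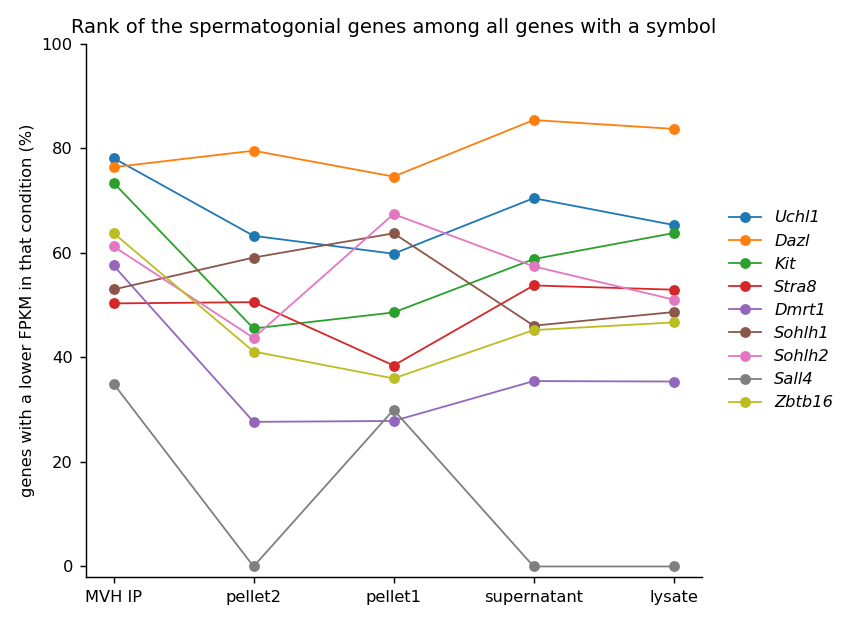
Lines join, for each spermatogonial gene, the share of 21905 genes with a symbol that had a lower FPKM in the same condition (percent, linear axis); the conditions are separate samples and the lines only guide the eye. Uchl1, Kit, Dmrt1, Sall4 and Zbtb16 have their highest rank in MVH IP, Sohlh1 and Sohlh2 in pellet1, and Dazl and Stra8 in supernatant.

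Other spermatogonial genes were mixed. Of all genes 47.3% were higher over lysate and 39.9% over pellet2. Of 25 genes of undifferentiated spermatogonia 14 passed in MVH IP over lysate, with 8 higher and 2 lower and a median log2 ratio of 1.30; over pellet2 it was 6 higher and 2 lower of 15 with a median of 0.53. After centring on all genes it was 2 higher and 2 lower over lysate, and 2 higher and 3 lower over pellet2. The 8 higher over lysate were Bcl6b, Itga6, Eomes, Tspan8, Utf1, Rarg, Taf4b and Egr4. All but Tspan8 and Taf4b were under 1 FPKM in lysate, so they passed the filter through MVH IP alone and had to be higher there. Of the 6 higher over pellet2, Itga6, Utf1 and Egr4 passed the same way. Of the 8, the transcription cofactor Utf1 had 4.98 FPKM in MVH IP against 0.159 in lysate, and the integrin subunit Itga6 had 6.24 against 0.837. Taf4b, a subunit of the general transcription machinery, had 12.7 against 3.72. Id4, an inhibitor of helix-loop-helix factors in stem cells, had 15.8 FPKM in MVH IP, 11.0 in pellet2 and 15.9 in lysate. Pou5f1, a pluripotency factor, had 0.820, 1.48 and 3.82 FPKM. The stem cell genes Gfra1, Nanos3 and Thy1 are listed at 0 in MVH IP in the joint table, against 0.907, 1.15 and 2.98 FPKM in lysate, and Nanos2 had 0.153 FPKM against 1.72. A listed 0 is not always a low level, since the separate MVH IP table gives Gfra1 6.39 FPKM. In the list of differentiating spermatogonia and DNA replication 5 were higher and 0 lower of 13 over lysate, a share of 38.5%, with a median of 0.28. Centred it was 2 higher and 2 lower, and over pellet2 it was 5 higher and 2 lower of 14. Of those higher, Dnmt3b passed over lysate through MVH IP alone, as did Dnmt3b, Rhox13 and Mcm3 over pellet2. The list included Taf7l, a germ cell transcription factor subunit on the X chromosome, with 99.9 FPKM in MVH IP against 15.5 in lysate. Mcm3, a replication helicase subunit, had 19.2 against 3.71. On the other side were the topoisomerase Top2a, with 28.8 FPKM in MVH IP against 45.5 in lysate, and the proliferation marker Mki67, with 6.76 against 9.10.

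Retinoic acid genes had 7 higher and 1 lower of 12 over lysate, with a median of 1.41. Over pellet2 they had 5 higher and 1 lower of 12, with a median of 0.85 where all genes had 0.79. Of those higher, Rarb and Rarg passed over lysate through MVH IP alone, and Rarb did so over pellet2. Among all genes 47.3% were higher and 7.53% lower over lysate, and 39.9% and 5.78% over pellet2. After centring the retinoic acid list had 1 higher and 2 lower over lysate, and 1 higher and 1 lower over pellet2. Centred shares of all genes were 18.7% higher and 20.6% lower over lysate, and 14.2% and 13.7% over pellet2. Rxra, a partner of the retinoic acid receptors, was at 26.5 FPKM in MVH IP, 15.4 in pellet2 and 5.77 in lysate. Among 23 relatives of the 9 genes, 6 were higher and 2 lower of 18 over lysate, with a median of 0.57. After centring it was 1 higher and 5 lower. Of the 6, Dmrt2 and Dmrta2 passed through MVH IP alone. Dmrt3, of the same family as Dmrt1, was at 14.5 FPKM in MVH IP, 10.6 in pellet2, 14.0 in pellet1, 1.25 in supernatant and 1.53 in lysate, so unlike Dmrt1 it was already high in both pellets. Boll, the Dazl relative of later germ cells, had 114 FPKM in MVH IP against 75.5 in lysate. Kitl, the ligand of KIT made by Sertoli cells, was at 5.00 FPKM in MVH IP, 0.483 in pellet2 and 1.80 in lysate.

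Markers of other cells were also higher in part. Of 23 Sertoli cell genes 14 of 17 that passed were higher and 0 lower in MVH IP over pellet2. Over lysate 13 of 20 were higher and 4 lower. Sox9, Gata4, Inhbb, Cldn11, Kitl, Dhh and Aard were under 1 FPKM in pellet2 and passed that comparison through MVH IP alone. Sox9, Inhbb and Dhh did so over lysate as well. The shares of all genes were 39.9% higher and 5.78% lower over pellet2, and 47.3% and 7.53% over lysate. Centred, the Sertoli list had 11 higher and 1 lower over pellet2, beside 14.2% and 13.7% of all genes. Over lysate it had 9 higher and 4 lower after centring, beside 18.7% and 20.6%. The summed level of that list was 623 FPKM in MVH IP, 144 in pellet2, 124 in pellet1, 242 in supernatant and 228 in lysate. Ctsl, a lysosomal protease, had 127 FPKM in MVH IP against 6.68 in pellet2, and Cldn11, a tight junction protein, had 22.3 FPKM in MVH IP, against a listed 0 in pellet2. Trf, Aard, Nr5a1 and Defb36 of that list were also 4-fold or more above lysate. Amh, Fshr, Rhox8, Inha and Hopx are listed at 0 in MVH IP. The part of Sertoli cell RNA in the Dmrt1 and other values was not tested.

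Germ cell lists of later stages had medians over lysate below that of all genes, 0.92. For the counts that follow, 47.3% of all genes were higher and 7.53% lower over lysate, and 18.7% and 20.6% after centring. Of 21 spermatocyte genes 3 were higher and 0 lower in MVH IP over lysate, with a median of 0.46, and of 24 round spermatid genes 9 and 0, with a median of 0.37. Centring turned the balance, to 1 higher and 6 lower for spermatocyte genes and 2 higher and 7 lower for round spermatid genes. Of the 3 spermatocyte genes higher over lysate, Prdm9 passed through MVH IP alone. Rec8, a meiotic cohesin, had 105 FPKM in MVH IP against 22.4 in lysate. Catsper4, of the sperm calcium channel, had 339 FPKM in MVH IP against 67.5 in lysate, and Spaca4, of the acrosome, had 185 against 34.7. The synaptonemal complex gene Sycp2 had 45.0 FPKM in MVH IP against 83.3 in lysate, and Akap4, of the sperm tail, had 552 against 948. The Leydig cell list had 2 of 10 higher and 2 lower over lysate, with a median of -0.64, and 1 higher and 7 lower after centring. Nr5a1, in the Leydig and the Sertoli list, had 22.9 FPKM in MVH IP against 4.40 in lysate. Hsd3b6, a steroid enzyme, is listed at 0 in MVH IP, against 21.2 FPKM in lysate. Of 12 peritubular, vascular and blood genes 5 were higher and 3 lower over lysate; centred, the list had 1 higher and 3 lower. It included Des, the muscle filament protein desmin, at 30.9 FPKM in MVH IP against 0.626 in lysate. Of the 5 higher, Des, Cnn1 and Kdr were under 1 FPKM in lysate and passed through MVH IP alone. The globin genes were Hba-a1, with 8.91 FPKM in MVH IP against 45.2 in lysate, and Hbb-b1, with 0.00119 against 14.3. The Leydig list summed to 303 FPKM in MVH IP, 185 in pellet2 and 381 in lysate, and the peritubular, vascular and blood list to 95.2, 57.0 and 88.7. Over pellet2 the Leydig list had 5 higher and 1 lower of 9, centred 3 and 2. The peritubular, vascular and blood list had 5 and 2 of 11, centred 5 and 2. Spermatocyte genes had 5 and 0 of 21, centred 1 and 1. Round spermatid genes had 9 and 0 of 24, centred 1 and 2. Dmc1, Cnn1 and Cdh5 passed there through MVH IP alone. Of all genes 39.9% were higher and 5.78% lower over pellet2, centred 14.2% and 13.7%.

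**Figure D4:**
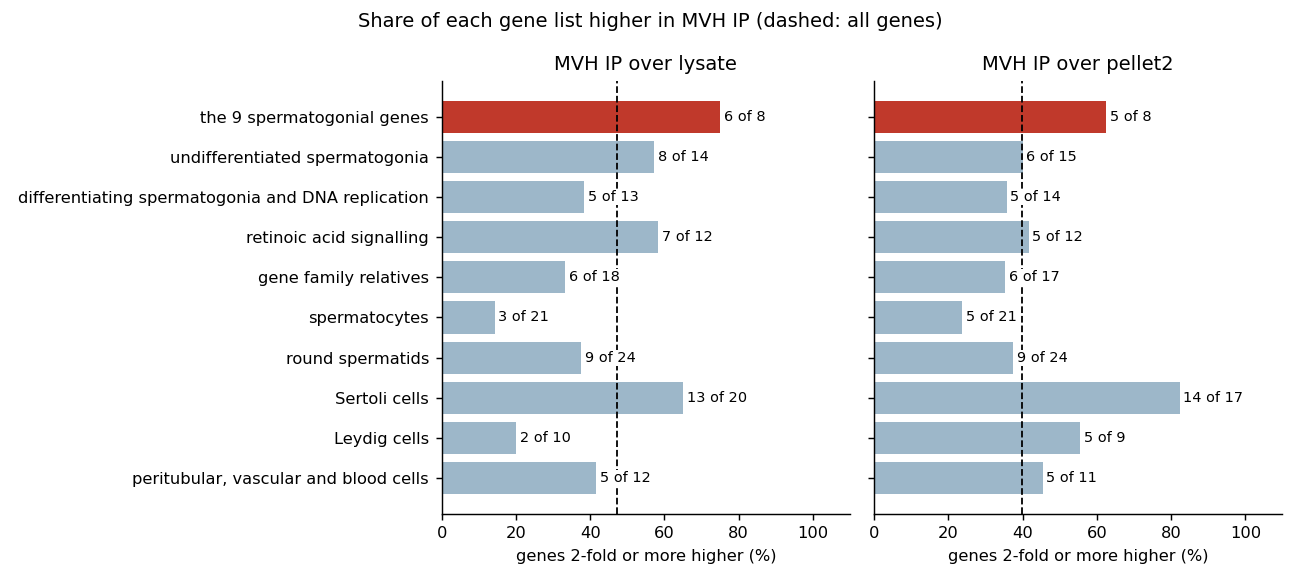
Bars give the percent of genes that were 2-fold or more higher in MVH IP, over lysate (left) and over pellet2 (right), for the 9 spermatogonial genes and 9 other lists, with the count and the number that passed the filter beside each bar; the dashed line is the same share over all genes. The spermatogonial bar is at 6 of 8 and 5 of 8, and over pellet2 the Sertoli list, at 14 of 17, is longer. The spermatogonial and Sertoli counts in both panels include genes that passed the filter through MVH IP alone, as do counts of some other lists.

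None of the 9 genes is listed in the tables of round spermatids, whether labelled hetMIWI or not, both of which start at 5 FPKM. These tables are short, with 3187 genes in all for hetMIWI and 4956 for the other, where the joint table has 21905 with a symbol. The same tables list 14 of 24 and 24 of 24 round spermatid genes, and 7 of 24 and 12 of 24 spermatocyte genes. The undifferentiated list has 0 of 25 genes in each. The separate MVH IP table, with 8056 genes in all, lists 4 of the 9, namely Uchl1 at 12.5 FPKM, Dazl at 18.0, Dmrt1 at 9.24 and Sohlh2 at 8.60. The lysate table, with 7900 genes in all, lists Dazl alone. Of the 7 genes at 5 FPKM or more in MVH IP in the joint table, Kit, Sohlh1 and Zbtb16 are missing from the separate table, which lists 67.6% of all genes at that level, so a missing gene need not be low. Comparisons between sorted cells and other samples therefore have no value for these genes.

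For each gene that reached 1 FPKM, the gene with the closest levels over the 5 conditions was found by the Euclidean distance on log2(FPKM + 1). Kit was closest to Bgn, the matrix proteoglycan biglycan, at a distance of 0.33, with Bgn at 20.1 FPKM in MVH IP, 1.16 in pellet2, 1.58 in pellet1, 3.15 in supernatant and 3.90 in lysate. Uchl1 was closest to Tsg101, a subunit of the endosomal sorting machinery, at 0.26, and Dazl to Ppp2r5e, a regulatory subunit of protein phosphatase, at 0.28. Stra8 was closest to Hiatl1 at 0.21, Dmrt1 to Zdhhc23 at 0.19, Sohlh1 to Pik3ap1 at 0.22, Zbtb16 to Poglut1 at 0.28 and Sohlh2 to Gab1 at 0.52. Within a distance of 0.5 there were 40 genes for Dazl, 2 for Kit and 0 for Sohlh2. With 5 values a gene, such likeness is a description of levels.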

How the data were processed

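RNA-seq values of 9 genes were taken from deposited tables. The series holds 14 libraries in 9 groups, of which ACR IP (3) and IgG IP (1) do not enter here. TopHat, Cuffdiff and build mm9 are named in the submitters' processing notes. Their versions, the scaling, read counts and strand setting are not given in the sources used, so reads of overlapping or antisense genes cannot be told apart. Reverse transcription used not-so-random primers, per the labels' protocols.

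The deposited values are FPKM per the file headers, with 1 value per condition, so the planned limma fit could not be made and no test was run. The joint table repeats each condition in several pairs. MVH IP differed between pairs for 12 features, none of them a member, and the highest value was used. The p-values and q-values are the authors' own from Cuffdiff, per the file headers; pairs the authors marked as not tested have none here. A deposited value per transcript record carries no unit and was kept as a score. Columns of no sample of the series numbered 1 (small RNA) and were not used. Ratios are log2 of (FPKM + 1), over genes carrying a symbol with mean FPKM of 1 or more in the pair, called at 2-fold, with pandas 2.3.3 and numpy 2.4.6. The centred ratios were checked on simulated data made from lysate values. Changed genes were scored there at 5 FPKM or more in lysate, so the check does not cover uncentred calls or lower genes. Coordinates are mm9 and counted from 1, except the RefSeq promoters.

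The members, the 9 other lists (some genes are in more than 1) and the comparisons were chosen with earlier results of these data known. Named were the 9 genes; of other lists, genes with a mean of at least 5 FPKM that were 4-fold or more from lysate in MVH IP, otherwise the 2 highest in lysate; and the nearest gene to each member. The 8 higher undifferentiated genes, Gfra1, Nanos2, Nanos3, Thy1, Top2a, Mki67, Sycp2, Akap4, Boll, Kitl and the Sertoli genes listed at 0 were named after their values were seen. So were the other genes of these lists given only as passing the filter through MVH IP alone.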

Additional observations from a re-analysis of the deposited data

How the results depend on the processing

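The 15 log2 ratios of single genes at 2-fold or more kept their sign under every alternative that gave a value for them. Filters only choose genes and another pseudocount cannot turn a sign, so only centring and equal sums could have done so. For MVH IP over lysate the count of higher genes, 6 of 8, came to 3 after centring on the median of all genes and to 1 of 1 in the separate gene tables, where Dazl is the one gene in both. Centring left Kit at 0.92, Sohlh1 at 0.25 and Sohlh2 at 0.85, and equal sums without small RNA genes left Sohlh1 at 0.68. For MVH IP over pellet2 the count was 3 of 6 with 1 FPKM required in both conditions (chosen after seeing the data). For pellet2 over lysate a pseudocount of 0.1 gave 1 higher (Sohlh1) and a mean of 5 FPKM gave 0 lower. For pellet1 over lysate a pseudocount of 0.1, centring and equal sums each gave 2 lower (Kit and Stra8), and a mean of 5 FPKM, which leaves 1 gene, gave 0 higher and 0 lower. Supernatant kept 0 and 0 throughout. The alternatives for round spermatids gave no value, since 0 members are listed in both tables. No replicate could be left out and no paired analysis was possible because each condition has 1 deposited value. Unknown depth limits values near or under 1 FPKM most. These are Sall4 throughout, Dmrt1 and Zbtb16 outside MVH IP, Stra8 in pellet1, Sohlh2 and Kit in pellet2, Kit in pellet1, and Sohlh1 in supernatant and lysate. With 1 FPKM added, the largest ratio, Kit in MVH IP over pellet2, rests on 1.37 FPKM in pellet2. A pseudocount of 0.1 gave 3.80 for Kit and a larger 5.41 for Dmrt1, which had 0.0687 FPKM in pellet2.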
